A study of Mus musculus with 6 samples.

Results

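The genes described here are 9 plasma cell marker genes, *Jchain*, *Sdc1*, *Mzb1*, *Slamf7*, *Cd93*, *Ly6c2*, *Cd38*, *Edem1l* and *Tigit*, chosen by name. Of the 9 names, 8 were found among the 54446 genes with normalized counts, and 7 of the 8 reached a mean of 10 normalized counts and were tested among 12322 genes. *Ly6c2* was found but not tested, and the name *Edem1l* matched no identifier, symbol or synonym, so no value was given to it. RNA came from primary splenic B cells of *Tent5c* KO mice and their WT littermates, aged 12 to 15 weeks, of mixed C57BL/6J X CBA strain. Naive B cells had been separated from spleen by immunomagnetic negative selection, and all 6 cultures, 3 per genotype, received IL-4 (20 ng/ml) together with LPS (20 µg/ml) over 7 days. Each of the 3 replicate numbers is a KO and a WT littermate and is also the batch, so littermate pair and batch cannot be told apart. Depth ranged from 5393558 to 6793520 fragments on genes per library, the WT library of pair 3 being the shallowest.

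Plasmablasts and plasma cells are the antibody-secreting end of the B cell lineage. As B cells become plasmablasts under BLIMP1 (*Prdm1*), IRF4 and XBP1, they enlarge the endoplasmic reticulum, silence much of the mature B cell programme led by PAX5, and display surface proteins such as CD138. The J chain joins IgM into pentamers and IgA into dimers, and MZB1 is an endoplasmic reticulum protein that works with the chaperone GRP94 (*Hsp90b1*) in antibody assembly and secretion. TENT5C, the enzyme removed in the KO, is a non-canonical poly(A) polymerase. These are bulk cultures, in which fewer cells of a type and less RNA per cell cannot be told apart.

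The *Tent5c* transcript did not separate the genotypes. It stood at 1993, 993 and 1170 normalized counts under the KO label and at 1255, 767 and 1584 under the WT label, in pairs 1, 2 and 3 (log2 fold change 0.20, SE 0.19; limma, adjusted *p* = 0.970; −0.03 without pair 1). The 2 groups overlapped, so the labels were not checked by this transcript and KO and WT are used below as labels. The B cell markers *Ms4a1* (9152 to 12045 normalized counts), *Cd79b* (5630 to 6634), *Cd79a* (1219 to 1611) and *Pax5* (1334 to 1975) were high in all 6 libraries.

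The promoter windows of 2 markers are shown because these had the widest and the narrowest spread of the 7 markers tested: *Jchain* varied 3.73-fold between its highest and lowest library and *Slamf7* 1.23-fold. Each window is the 250 bases before the RefSeq start on GRCm38.p6, printed 5′ to 3′ on the strand of the gene, chr5:88527898-88528147 (minus) for *Jchain* and chr1:171649000-171649249 (minus) for *Slamf7*. Capitals mark matches, on either strand, to ACGTG (core of the unfolded protein response element), GAAAGT (core of the BLIMP1 site) and TGACTCA (AP-1 site). None of these matches overlaps another.
Jchain: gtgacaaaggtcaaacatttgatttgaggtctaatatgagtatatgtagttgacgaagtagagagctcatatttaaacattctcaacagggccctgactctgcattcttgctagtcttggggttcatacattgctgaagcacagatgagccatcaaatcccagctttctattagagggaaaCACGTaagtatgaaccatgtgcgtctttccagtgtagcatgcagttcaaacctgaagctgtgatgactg
Slamf7: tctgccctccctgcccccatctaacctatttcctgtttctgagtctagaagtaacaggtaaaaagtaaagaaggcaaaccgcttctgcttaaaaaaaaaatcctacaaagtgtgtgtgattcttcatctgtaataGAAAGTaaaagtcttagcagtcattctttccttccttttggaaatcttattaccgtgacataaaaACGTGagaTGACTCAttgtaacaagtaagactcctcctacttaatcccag

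The *Jchain* window held 1 match, to ACGTG, 69 bases before the start. The *Slamf7* window held 3, GAAAGT at 115, ACGTG at 50 and TGACTCA at 42 bases before the start. Over 32851 windows of the same length, 16.6% held ACGTG, 12.3% GAAAGT and 4.46% TGACTCA. Because the motifs were chosen after the windows had been read, these shares are no test of the matches. The windows of *Sdc1*, *Cd38* and *Ly6c2* held no match, and that of *Tigit* held 1, to ACGTG.

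Compared per kb of annotated exon, the markers spanned a wide range of levels in these cultures. *Mzb1* was the most abundant (mean of 3799 normalized counts per kb), followed by *Jchain* (1580), *Slamf7* (288), *Cd38* (45.1), *Cd93* (39.3), *Sdc1* (12.3), *Tigit* (11.6) and *Ly6c2* (1.70). *Mzb1* exceeded *Jchain* in 6 of 6 libraries, although the lowest *Mzb1* library (2936 per kb) lay under the highest *Jchain* library (3216 per kb). That order rests on the annotated exon lengths, 1215 bases for *Mzb1* and 2517 for *Jchain*. Before division, *Jchain* was higher in the KO library of pair 1 (4744 against 4684 normalized counts) and the WT library of pair 3 (8096 against 6308). *Mzb1* was higher in the remaining libraries. *Cd38* exceeded *Cd93* in 3 of 6 libraries and *Sdc1* exceeded *Tigit* in 2 of 6, so neither pair of neighbours could be put in order. The other neighbours in the order did not overlap over the libraries.

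*Jchain* (ENSMUSG00000067149, chromosome 5, 88519809 to 88527891, minus strand) had the widest spread of the 7 markers tested. The libraries labelled KO held 4744, 2171 and 2722 normalized counts and those labelled WT 3555, 2573 and 8096, in pairs 1, 2 and 3. The WT library of pair 3 was the highest of all 6 and the KO library of pair 2 the lowest, and the groups overlapped. The KO/WT ratio was 1.33 (95% exact counting interval 1.28 to 1.39), 0.844 (0.797 to 0.894) and 0.336 (0.322 to 0.351) in the same order. All 3 intervals exclude 1, on different sides, so the littermate pairs differed by more than counting error, and the intervals cover counting error only. Over the 3 pairs the log2 fold change was −0.47 (SE 0.33, 95% interval −1.26 to 0.32; limma, adjusted *p* = 0.970). The estimate was 0.09 without pair 3, and −0.91 without pair 1 (limma, adjusted *p* = 0.0548), a fit in which 1.36% of all genes were called lower and 0.0243% higher.

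*Mzb1* (ENSMUSG00000024353, chromosome 18, 35647267 to 35649367, minus strand) was the only marker tested that was lower in the KO library of every pair. It was read at 4684, 3568 and 3954 normalized counts in libraries labelled KO and at 5076, 4102 and 6308 in those labelled WT. The KO/WT ratios were 0.923 (0.888 to 0.959), 0.870 (0.832 to 0.910) and 0.627 (0.602 to 0.653) in pairs 1, 2 and 3, with each counting interval under 1. Across pairs the groups still overlapped, since the WT library of pair 2 lay under the KO library of pair 1. The log2 fold change was −0.33 (SE 0.11, 95% interval −0.60 to −0.06), with an unadjusted *p*-value of 0.0230 that did not pass adjustment over all genes tested (limma, adjusted *p* = 0.970). Without pair 3 the log2 fold change was −0.16. Of the 12322 genes, 13.1% were lower in all 3 pairs and 3.03% were lower at an unadjusted *p*-value under 0.05.

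**Figure D1:**
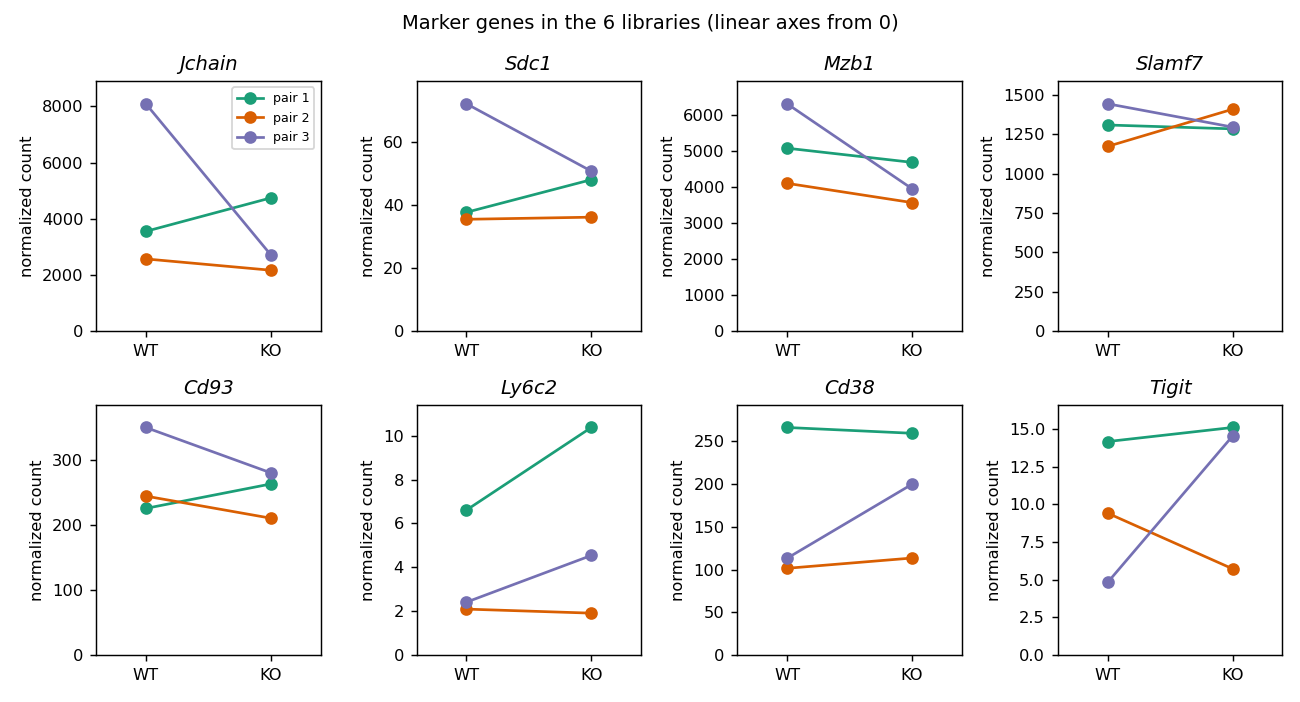
Normalized counts (vertical axes, linear, from 0) of the 8 marker genes found, in the WT and KO library of each littermate pair, joined by a line and coloured by pair. The WT library of pair 3 is the highest for *Jchain*, *Sdc1*, *Mzb1*, *Slamf7* and *Cd93*, and the KO/WT direction differs between pairs in all markers but *Mzb1*.

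*Sdc1* (ENSMUSG00000020592), which encodes CD138, the surface proteoglycan by which plasma cells are commonly gated, was weakly read. The libraries labelled KO held 48.1, 36.2 and 50.8 normalized counts and those labelled WT 37.8, 35.5 and 72.2, from 34 to 60 fragments per library. The WT library of pair 3 was again the highest, and the others lay close together. The counting intervals of the KO/WT ratio contained 1 in all 3 pairs (1.27, 1.02 and 0.704), and the log2 fold change was −0.04 (SE 0.22, 95% interval −0.58 to 0.49; limma, adjusted *p* = 0.992). Without pair 3 the estimate was 0.18.

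*Slamf7* (ENSMUSG00000038179), a surface receptor of the SLAM family on plasma cells and other lymphocytes, was the steadiest marker. It stood at 1284, 1409 and 1296 normalized counts in libraries labelled KO and at 1309, 1173 and 1444 in those labelled WT. The KO/WT ratio was 0.981 (0.910 to 1.06), 1.20 (1.11 to 1.30) and 0.898 (0.831 to 0.970) in pairs 1, 2 and 3. The directions were mixed, and the log2 fold change of 0.03 (SE 0.09, 95% interval −0.19 to 0.24) had an adjusted *p*-value of 0.990 in limma. Without pair 2 it was −0.09.

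*Cd93* (ENSMUSG00000027435), a surface receptor kept on long-lived plasma cells and also found on early B cells and endothelium, stood at 263, 211 and 281 normalized counts in libraries labelled KO. In the libraries labelled WT it stood at 226, 245 and 350. The KO/WT ratio was 1.17 (0.978 to 1.39), 0.861 (0.713 to 1.04) and 0.801 (0.680 to 0.943), and only the interval of pair 3 excluded 1. The log2 fold change was −0.10 (SE 0.12, 95% interval −0.40 to 0.19; limma, adjusted *p* = 0.970), and 0.0032 without pair 3. The endothelial markers *Kdr* and *Tek* were at 0 in all 6 libraries, and the 4 endothelial markers summed to 61.3 to 123 normalized counts in the KO and 75.9 to 124 in the WT libraries, with only *Pecam1* above a mean of 10.

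*Cd38* (ENSMUSG00000029084), an NAD-consuming surface enzyme of B cells whose level changes along plasma cell differentiation, followed the pairs. It stood at 260, 113 and 200 normalized counts in libraries labelled KO and at 266, 101 and 113 in those labelled WT. Both libraries of pair 1 were high, both of pair 2 and the WT library of pair 3 were low, and littermate pair took 83.0% of its sum of squares on the log2 scale. The KO/WT ratio was 0.975 (0.822 to 1.15), 1.12 (0.848 to 1.48) and 1.77 (1.38 to 2.27), and the log2 fold change 0.31 (SE 0.17, 95% interval −0.11 to 0.73; limma, adjusted *p* = 0.970). It was 0.06 without pair 3.

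*Tigit* (ENSMUSG00000071552), an inhibitory receptor best known from T and NK cells, rested on 4 to 16 fragments per library. It stood at 15.1, 5.72 and 14.5 normalized counts in libraries labelled KO and at 14.2, 9.41 and 4.82 in those labelled WT. All 3 counting intervals of the KO/WT ratio contained 1, and the log2 fold change was 0.29 (SE 0.50, 95% interval −0.91 to 1.49; limma, adjusted *p* = 0.974), and −0.27 without pair 3. *Ly6c2* (ENSMUSG00000022584), a GPI-anchored surface protein of plasma cells, T cells and monocytes, had 2 to 11 fragments per library, with 10.4, 1.91 and 4.54 normalized counts in libraries labelled KO and 6.61, 2.09 and 2.41 in those labelled WT. Its near-identical neighbour *Ly6c1* was at 0 in all 6 libraries, and fragments that fit both genes were left out by the authors, so the *Ly6c2* level is uncertain.

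Most listed markers of other cell types that can express *Tigit*, *Ly6c2* or *Slamf7* had a mean under 10 normalized counts. Their sums exceeded the levels of *Tigit* and *Ly6c2*, but a sum over 3 to 10 genes is not comparable with the level of 1 gene. The 10 T cell markers summed to 46.7 to 122 normalized counts in the KO and 48.1 to 135 in the WT libraries. Among them *Cd3e* stood at 0 to 4.82, *Trbc2* at 1.91 to 19.3, and only *Cd2* (30.5 to 89.7 by library) had a mean above 10. The 6 NK cell markers summed to 20.8 to 68.1 and 17.8 to 62.6, with *Gzma* and *Prf1* above that mean. The 10 myeloid markers summed to 20.0 to 133 and 64.8 to 95.1. *Lyz2* (2.86 to 85.9 by library) and *Adgre1* (14.3 to 37.8) had a mean above 10, and *S100a8*, *S100a9* and *Fcgr1* were at 0 in all libraries. The 3 plasmacytoid dendritic cell markers summed to 79.1 to 159 and 81.6 to 159, with *Siglech* at 0 in all libraries, *Ccr9* at 0 to 3.63 and nearly the whole sum in *Cox6a2*. Within each genotype the T cell, myeloid and plasmacytoid dendritic sums were lowest in pair 2, as were *Jchain*, *Mzb1*, *Sdc1*, *Cd38* and *Ly6c2*. *Slamf7*, *Cd93* and *Tigit* did not follow this in both genotypes. Among libraries labelled KO the NK cell sum was lowest in pair 1, and the endothelial sum was highest in pair 2 in both genotypes. The KO library of pair 2 was the lowest of all 6 for 3 of the 7 markers tested, against 17.8% of all genes. The share of all genes lowest in pair 2 within each genotype was not counted. Which cells the *Cd2* and *Cox6a2* fragments came from was not tested, nor was the part of other cell types in the marker levels.

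**Figure D2:**
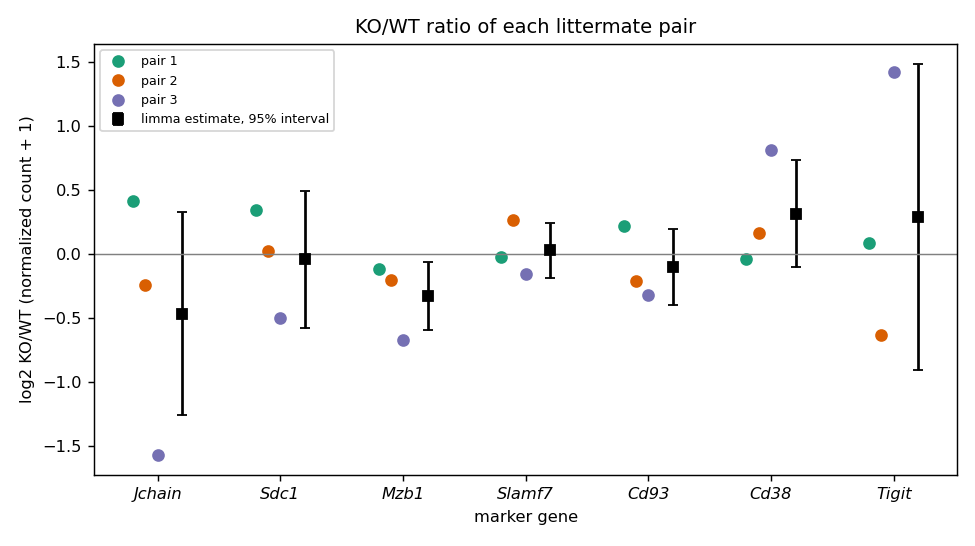
Log2 KO/WT ratio of normalized counts plus 1 (vertical axis) for the 7 marker genes tested, with 1 coloured point per littermate pair and the limma estimate with its 95% interval as a black square. For *Jchain* the pairs lie at 0.42, −0.24 and −1.57, and the interval of *Mzb1* alone lies under 0.

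None of the 7 markers tested was called between KO and WT at an adjusted *p*-value under 0.05, where 0% of all 12322 genes were called in either direction (limma). At an unadjusted *p*-value under 0.05, 1 marker (*Mzb1*) was lower and 0 were higher, against 3.03% lower and 1.67% higher over all genes. On the recovered fragments, edgeR (quasi-likelihood) called 0 genes, and DESeq2 called 0.232% of 9894 genes and none of the 6 markers to which it gave an adjusted *p*-value, *Tigit* having none. The median log2 fold change of the 7 markers was −0.04, with 4 of 7 negative, against 0.00067 and 49.8% negative over all genes tested. No marker had groups that did not overlap, against 6.83% of all genes.

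Several markers peaked in the same library. Of the 7 tested, 5 were highest in the WT library of pair 3, against 23.1% of all genes, and 5 were lower in the KO library of that pair, against 49.5%. Both counts draw on the same WT library, so they are not independent. The markers were chosen with earlier results of these data known, so such counts are a description only. In pair 1, 4 of 7 were higher in KO, against 46.8%. *Jchain*, *Sdc1* and *Cd93* were higher in KO in pair 1 and lower in pair 3, a combination found in 23% of all genes. In the sum of squares on the log2 scale, the genotype label took from 0.377% (*Sdc1*) to 37.6% (*Mzb1*) of a marker, with a median of 5.98% over the 7 markers and 10.05% over all genes. The littermate pair took the largest part in 5 of the 7, up to 75.7% in *Sdc1*, 70.7% in *Cd93* and 83.0% in *Cd38*, with a median of 44.9% over the 7 and 47.3% over all genes, while in *Slamf7* 81.6% was left to pairs that differed in their KO/WT ratio. Because pairs outnumber genotype labels, the split itself gives the pair a larger part than the label even without any effect. The share of all genes in which the pair took the largest part was not counted.

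**Figure D3:**
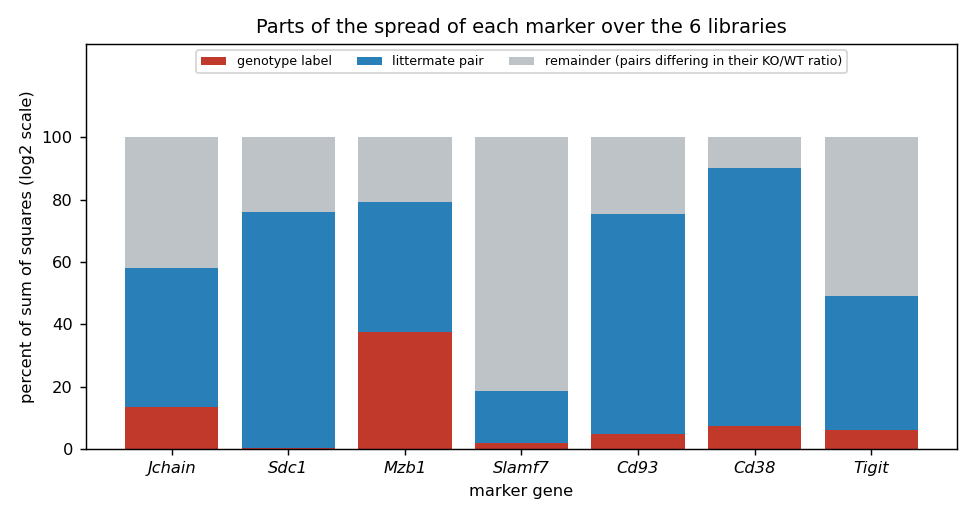
Stacked bars giving the percent of each marker gene's sum of squares over the 6 libraries (log2 scale) taken by genotype label, littermate pair and remainder. The genotype part is largest in *Mzb1* (37.6%) and smallest in *Sdc1* (0.377%).

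Agreement between markers was measured as the number of the 15 pairs of libraries that 2 genes put in the same order, a description without a test because littermate libraries are not independent. Over the 21 pairs of markers it ranged from 3 to 13 with a median of 9. *Jchain* was ordered like *Mzb1* in 13 of 15, like *Sdc1* in 12 and like *Cd93* in 12, and *Sdc1* like *Cd93* in 13. Among all genes, 12.7% reached 12 of 15 with *Jchain*. *Mzb1* was ordered like *Sdc1* and *Cd93* in 10 each, as *Sdc1* was with *Slamf7*. Against *Jchain*, *Slamf7*, *Cd38* and *Tigit* reached 9 of 15 each, and *Slamf7* and *Tigit* were ordered alike in 3. *Cd38* and *Tigit* were ordered alike in 11. Among all genes, 9.24% reached 12 of 15 with *Sdc1* and 16.6% reached 11 with *Cd38*, while 6.32% were at 3 or fewer with *Slamf7*. *Tigit* rested on 4 to 16 fragments per library and *Sdc1* on 34 to 60, so counting error can change their library order.

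The transcription factors of the plasma cell programme were ordered much as *Jchain* was. *Jchain* was ordered like *Irf4* in 14, like *Prdm1* in 13 and like *Xbp1* in 12 of 15 library pairs, and like *Derl3*, a gene for removal of misfolded endoplasmic reticulum proteins, in 15. It was ordered like *Pax5* and *Ebf1*, regulators of B cell identity chosen after their values were seen, in 3 each, a count that 12.7% of all genes did not exceed. *Bach2*, a further regulator of mature B cells, was ordered like *Jchain* in 7, the median over all genes, and like *Cd93* in 10. Levels of *Prdm1* were 565, 207 and 286 normalized counts in libraries labelled KO and 325, 206 and 409 in those labelled WT (log2 fold change 0.10, SE 0.23; limma, adjusted *p* = 0.984). *Xbp1* had a log2 fold change of 0.19 (SE 0.19) and *Irf4* of −0.01 (SE 0.12, and 0.0039 after quantile normalization), both above an adjusted *p*-value of 0.05 in limma.

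**Figure D4:**
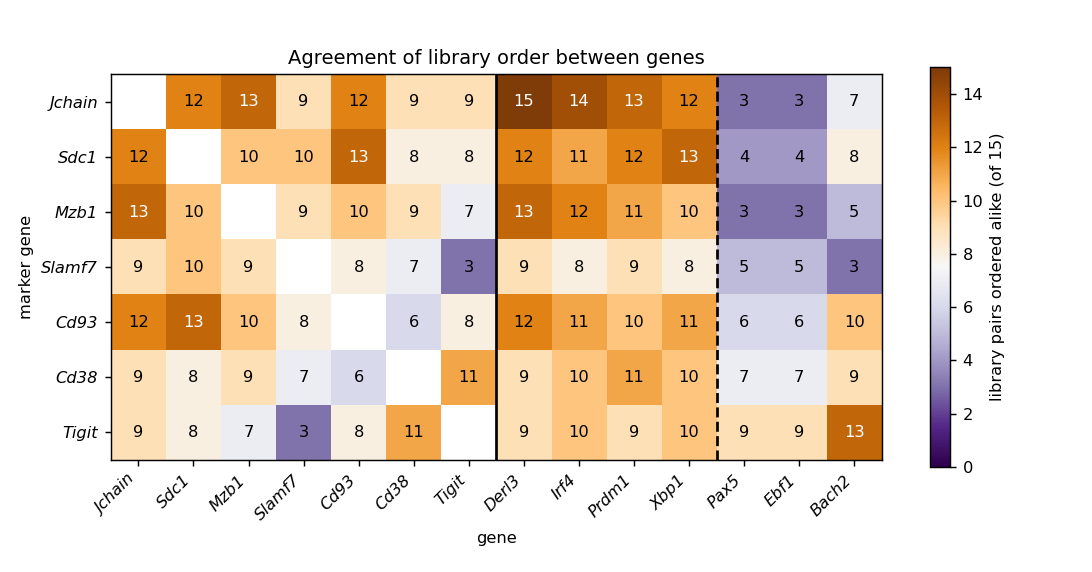
Number of the 15 pairs of libraries that a marker gene (rows) and another gene (columns) put in the same order, for the 7 marker genes, 4 plasma cell genes and, right of the dashed line, *Pax5*, *Ebf1* and *Bach2*. *Jchain*, *Sdc1*, *Mzb1* and *Cd93* are ordered alike in 10 to 13 of 15, *Jchain* and *Pax5* in 3 and *Jchain* and *Bach2* in 7.

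By the root-mean-square difference of centred log2 profiles over the 6 libraries, among 9587 genes whose mean reached 50, the profiles most like that of *Jchain* were *Iglv1* (0.165), *Derl3* (0.203) and *Ighj2* (0.212). Those most like *Mzb1* were *Ssr2* (0.0333), which encodes a subunit of the translocon-associated complex, *Arfgap3* (0.0565) and *Snx32* (0.0608). *Cox8a* (0.0256), *Lmo4* (0.0269) and *Mettl6* (0.0303) were nearest to *Slamf7*. Its profile was nearly flat, with an SD of 0.0972 and a median difference from the genes compared of 0.161, against 0.639 and 0.653 for *Jchain*. The differences are therefore not comparable between markers. *Gna15* (0.0701), *Man1b1* (0.0761) and *Glrx* (0.0851) were nearest to *Cd93*, and *Ifi209* (0.163), *Tmem140* (0.200) and *Plac8* (0.201) to *Cd38*. *Sdc1* and *Tigit* were under the mean of 50 and were not compared this way.

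Each of the 6 tested partners of J chain and MZB1 was lower in the KO library of every pair, against 13.1% of all genes. Their median log2 fold change was −0.34, and 5 of 6 were lower at an unadjusted *p*-value under 0.05 (limma), against 3.03% of all genes. After adjustment 0 passed. The list was chosen with earlier results of these data known, so these counts are a description only. The endoplasmic reticulum chaperone *Hspa5* had a log2 fold change of −0.39 (SE 0.08; adjusted *p* = 0.693) and *Hsp90b1*, the partner of MZB1, of −0.42 (SE 0.11; adjusted *p* = 0.849). *Ighm*, the heavy chain that J chain joins, had a log2 fold change of −0.35 (SE 0.12; adjusted *p* = 0.970), and *Igha*, the other, of −0.29 (SE 0.19; adjusted *p* = 0.970). Without pair 3, *Hsp90b1* was at −0.28 and *Ighm* at −0.21, and quantile normalization put *Ighm* at −0.22. Per kb, *Jchain* ran at 0.0623, 0.107 and 0.0574 of the *Ighm* level in the libraries labelled KO and at 0.0441, 0.0995 and 0.110 in those labelled WT, so this ratio was higher in KO in pairs 1 and 2 and lower in pair 3. Against *Igha* and *Igkc*, the kappa light chain, it was also higher in KO in pairs 1 and 2. In pair 3 it was lower in KO against both, at 55.8 against 162 for *Igha* and 0.0411 against 0.0459 for *Igkc*. Only against *Ighg1*, the heavy chain of IgG1, was it higher in KO in each pair (0.254, 0.126 and 0.159 against 0.130, 0.0903 and 0.153).

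The wider plasma cell programme, 21 tested genes besides the markers, gave 0 calls and a median log2 fold change of −0.07. Of these, 6 genes were lower and 1 was higher in all 3 pairs, against 13.1% and 11.7% of all genes. By pair, the medians were 0.10, −0.04 and −0.54 for pairs 1, 2 and 3. In the WT library of pair 3, 12 of 21 genes were highest, against 23.1% of all genes. *Fkbp11*, an endoplasmic reticulum prolyl isomerase, stood at 72.7, 42.9 and 32.7 normalized counts in libraries labelled KO and at 116, 56.5 and 167 in those labelled WT (log2 fold change −1.13, SE 0.36; limma, adjusted *p* = 0.970), and its estimate without pair 3 was −0.53. *Sdf2l1*, a chaperone co-factor, had a log2 fold change of −0.50 (SE 0.10; adjusted *p* = 0.693), *Edem2*, which trims sugars of misfolded glycoproteins, of −0.42 (SE 0.13; adjusted *p* = 0.970) and *Cd9* of 0.44 (SE 0.27; adjusted *p* = 0.970). Without pair 3, *Edem2* was at −0.23 and *Cd9* at 0.25.

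The 19 mature B cell genes gave 0 calls and a median log2 fold change of 0.11. In pair 3 they had a median of 0.36, with 17 higher and 2 lower in KO, against 50.4% higher over all genes, and in pair 1 they had a median of −0.06 with 14 lower, against 53.2%. None was highest in the WT library of pair 3 and 10 were lowest there, against 21.9% of all genes. *Cr2*, the complement receptor CD21, had a log2 fold change of 0.83 (SE 0.20; limma, adjusted *p* = 0.737), *Fcer2a* (CD23) of 0.17 (SE 0.08, and 0.07 without pair 3) and *Cd79a* of −0.21 (SE 0.08), the last 2 with an adjusted *p*-value of 0.970.

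**Figure D5:**
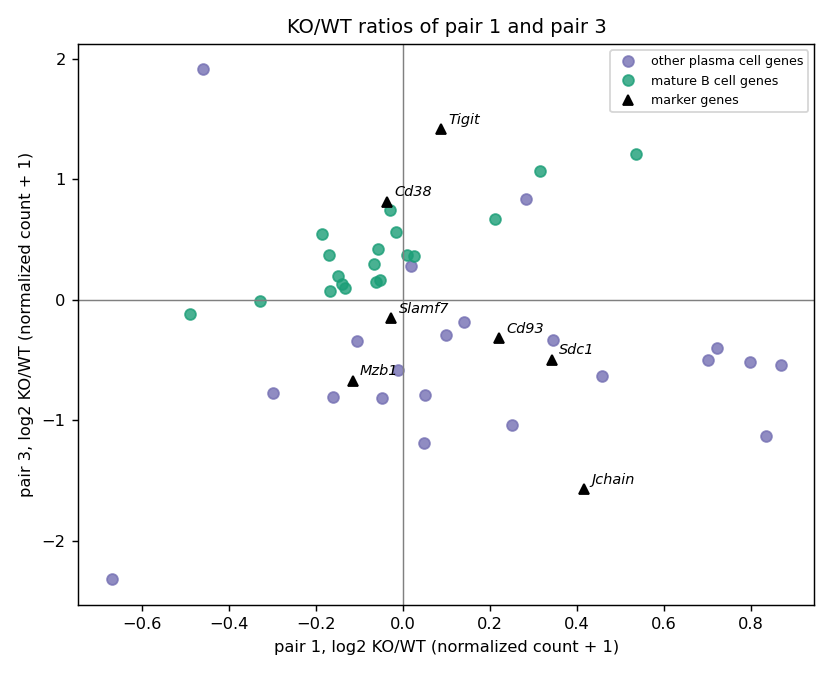
Log2 KO/WT ratio of normalized counts plus 1 in pair 1 (horizontal axis) and pair 3 (vertical axis), with 1 symbol per gene for the 7 markers tested, 21 other plasma cell genes and 19 mature B cell genes. In pair 3, 18 of the 21 plasma cell genes lie under 0 and 17 of the 19 mature B cell genes above it, against 49.5% and 50.4% of all genes.

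The families of the surface markers were also without a call. Of the SLAM family, 6 were tested with a median log2 fold change of 0.01, and *Slamf1* alone was higher in all pairs (0.29, SE 0.13, and 0.11 without pair 3). Of 7 tested syndecans and heparan sulfate enzymes, *Ext2* (−0.29), *Hpse* (−0.24) and *Sdc4* (−0.17, and −0.09 without pair 3) were lower and *Sdc3* (0.33) and *Ndst1* (0.13) higher in all pairs. Of 4 tested LY6 genes, *Ly6k* had a log2 fold change of −0.49, *Ly6a* of 0.07 (0.04 without pair 1) and *Ly6d* of 0.06 (0.04 without pair 3). The 3 tested relatives of TIGIT and the 3 of CD38 had medians of −0.21 and −0.09, and none of the 4 listed relatives of CD93 reached the mean of 10. The EDEM family was tested in full, with *Edem1* at a log2 fold change of −0.24 (SE 0.11; limma, adjusted *p* = 0.970), −0.06 without pair 3, and *Edem2* given above. Neither value stands for *Edem1l*.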

How the data were processed

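RNA of 6 activated B cell cultures, 3 *Tent5c* KO and 3 WT, was sequenced after ribodepletion with a strand-specific protocol. The authors trimmed reads with cutadapt, aligned them with STAR 2.6.1a to GRCm38, counted uniquely placed, properly paired fragments with featureCounts (Subread 1.6.3) on Gencode vM19 and scaled the libraries with DESeq2. What was deposited is a signal on the count scale, the normalized count of each gene, which cannot show a change shared by most transcripts. Fragments were recovered from them, since every value was a whole multiple of the step of its library within 0.001 of a fragment.

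Log2(normalized count + 1) was fitted with limma 3.58.1 (R 4.3.3, eBayes with a trend) with genotype and littermate pair as terms, over 12322 genes whose mean reached 10. Tests were two-sided, adjusted by Benjamini-Hochberg and called under 0.05. Alternatives used edgeR 4.0.16 and DESeq2 1.42.0 on the fragments, other pseudocounts, filters and scalings, no block, and each pair left out. In simulated counts (12322 genes, 3 pairs), limma found 75 of 100 spiked differences of size 1 on the log2 scale, 96 of 100 of size 2, and 13 false ones. There, genes were drawn independently and no KO/WT shift of a pair was shared between genes. The recovery may therefore not hold for genes that shift together by pair. Littermates pair the samples by the methods, and the deviations of libraries of a pair from their group means correlated at 0.328, 0.685 and 0.170, against −0.497 to 0.282 for KO and WT libraries of different pairs, of which 2 exceeded the value of pair 3. No libraries were duplicates, the chi-square per gene being 4.81 to 24.4.

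Intervals of pair ratios are exact binomial intervals of the fragments of 2 libraries. Symbols and exon lengths were taken from Gencode vM21 (GRCm38), where 54409 identifiers were found, and promoters from RefSeq. The motifs were chosen after the promoter windows had been read. Markers and lists were chosen with earlier results of these data known. From each list, the text names genes lower or higher in all 3 pairs, up to the 3 of largest absolute log2 fold change in each direction, besides the markers, *Prdm1*, *Xbp1*, *Irf4*, *Ighm*, *Igha*, *Hsp90b1*, *Ly6c1* and *Tent5c*. Some genes that this rule names are not reported here.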

Additional observations from a re-analysis of the deposited data

How the results depend on the processing

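Leaving out 1 littermate pair at a time moved the markers most. The log2 fold change then ranged from −0.91 to 0.086 for *Jchain*, −0.24 to 0.18 for *Sdc1*, −0.44 to −0.16 for *Mzb1*, −0.091 to 0.12 for *Slamf7*, −0.27 to 0.0032 for *Cd93*, 0.061 to 0.49 for *Cd38* and −0.27 to 0.75 for *Tigit*. It turned sign without pair 3 for *Jchain*, *Sdc1*, *Cd93* and *Tigit* and without pair 2 for *Slamf7*, and no marker passed the threshold in any of these fits. Among the other genes it ranged from −0.25 to 0.40 for *Prdm1*, −0.077 to 0.48 for *Xbp1*, −0.19 to 0.15 for *Irf4* and −0.033 to 0.52 for *Tent5c*, and quantile normalization gave 0.0039 for *Irf4*. Over these 3 fits the number of genes called ranged from 0 to 168 lower and from 0 to 3 higher, the most without pair 1, where *Sdf2l1* (adjusted *p* = 0.0242) and *Hsp90b1* (0.0175) were called in limma. DESeq2 with the pair as a block called 22 genes lower and 1 higher, among them *Hspa5* (adjusted *p* = 0.0306). With no replicate block, limma called 0 genes lower and 0 higher, the *Jchain* estimate was −0.47 and no call among the named genes differed. The other pseudocount, filters and scalings changed no call of a marker. The cause of these shifts was not tested. *Sdc1*, *Tigit* and *Ly6c2* rest on at most 60 fragments per library, as do *Ly6k* (19 to 45), *Sdc3* (13 to 49) and *Cd9* (17 to 41).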
